A study of Homo sapiens with 7 samples.

Results

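The genes described here are MEIS1, PBX3, MEF2C, JMJD1C, ARID1B, CPEB2, MBNL1 and PROM1, which leukemia work has described as targets of KMT2A fusion proteins and which lie outside the HOX gene clusters. These 8 were taken by name out of 19970 protein-coding genes on chromosomes 1 to 22 and X. The locus of each gene is its RefSeq span (build hg38) plus 50 kb on each side, and the 8 loci together measured 2541 kb. RUNX2 binding and H3K27ac were mapped in them by chromatin immunoprecipitation and sequencing (ChIP-seq) in 2 cell lines of T-cell acute lymphoblastic leukemia (T-ALL). KARPAS-45 is a T-ALL line with a KMT2A rearrangement and grew in 20% fetal bovine serum. PER-117, for which the labels give no KMT2A status, grew in 10% fetal bovine serum. The labels name no treatment and no engineered change in either line. RUNX2 was precipitated with antibody D1H7 and acetylated histone with antibody ab4729, and 3 of the 7 samples were inputs, which leaves 4 peak lists. PER-117 had a further input titled for H3K27ac, and KARPAS-45 had no separate input for that mark. The study, by its title, concerned the dependency of immature and KMT2A-rearranged T-ALL on RUNX2. The comparison of the lines asks where RUNX2 and H3K27ac stood at known targets of KMT2A fusions.

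KMT2A is a histone methyltransferase that keeps developmental genes active in blood stem cells. In leukemia, chromosome breaks join its amino-terminal part, which still finds chromatin through menin and PSIP1, to a partner protein, and many of these partners draw in the machinery of transcription elongation and DOT1L. Targets such as MEIS1 and PBX3 then stay on with the HOX genes they work with. RUNX2 is a Runt-domain transcription factor best known from bone formation, and it binds DNA with its partner CBFB. H3K27ac, acetylation of lysine on the tail of histone H3, marks active promoters and enhancers. In neither line can these lists show the fusion itself, since KMT2A was not precipitated.

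There was 1 library per line and antibody, so the lines cannot be tested against each other, and every difference is one between libraries at an unknown read depth. The RUNX2 list of KARPAS-45 had 42911 peaks and that of PER-117 had 21027, a ratio of 2.04. The H3K27ac lists covered 166.7 Mb in KARPAS-45 and 76.2 Mb in PER-117, a ratio of 2.19. The KARPAS-45 H3K27ac list reached down to a −log10 q of 0.431 and the PER-117 list to 1.01, so weaker regions entered the list of KARPAS-45. The widest H3K27ac region was 367982 bp in the KARPAS-45 list and 38650 bp in the PER-117 list. A fold enrichment is the authors' own value for a single peak over background, and it ranks peaks within its own list only. Values of the lines set side by side therefore describe single peaks and are no measure of more or less binding. As a check of the cell type, H3K27ac lay within 1 kb of a gene end at 10 of 10 T-cell marker genes in KARPAS-45 and at 8 in PER-117, where CD5 and GATA3 were without it. Of 4 myeloid and 2 erythroid markers, CEBPE and GATA1 were acetylated there in PER-117 only, and the others in neither line. RUNX2 peaks lay at gene ends of 7 T-cell markers in each line and of none of these myeloid and erythroid markers. Across all protein-coding genes, 61% had H3K27ac at a gene end and 48.3% had RUNX2 there by the KARPAS-45 lists. By the PER-117 lists these shares were 55.5% and 32.5%. The marker lists are short, and their counts were not tested against these shares.

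The promoter sequences below belong to members with a RUNX2 peak at an annotated start, and are shown so that the windows under these peaks can be read. Each runs from 250 bases before to 50 bases after a gene start, as 5′ to 3′ on the gene's own strand, from RefSeq (GRCh38.p14). Capitals mark the letters TGTGGT and TGCGGT, core sequences of Runt-domain binding sites, or their reverse complements ACCACA and ACCGCA. The MEIS1 window (chr2:66434875-66435174, plus strand) overlapped a KARPAS-45 peak. The window of the JMJD1C 5′ start (chr10:63521841-63522140, minus strand) overlapped a KARPAS-45 peak, and that of its internal start (chr10:63465928-63466227, minus strand) overlapped peaks of both lines. The MBNL1 window (chr3:152268679-152268978, plus strand) also overlapped peaks of both lines, and the CPEB2 window (chr4:15002231-15002530, plus strand) overlapped a KARPAS-45 peak.
MEIS1: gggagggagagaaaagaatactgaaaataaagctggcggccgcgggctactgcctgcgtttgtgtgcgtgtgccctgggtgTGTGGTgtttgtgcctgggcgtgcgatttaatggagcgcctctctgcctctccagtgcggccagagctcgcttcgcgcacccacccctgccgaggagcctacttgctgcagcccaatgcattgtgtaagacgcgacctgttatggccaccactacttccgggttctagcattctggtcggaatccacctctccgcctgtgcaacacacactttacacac
JMJD1C 5′ start: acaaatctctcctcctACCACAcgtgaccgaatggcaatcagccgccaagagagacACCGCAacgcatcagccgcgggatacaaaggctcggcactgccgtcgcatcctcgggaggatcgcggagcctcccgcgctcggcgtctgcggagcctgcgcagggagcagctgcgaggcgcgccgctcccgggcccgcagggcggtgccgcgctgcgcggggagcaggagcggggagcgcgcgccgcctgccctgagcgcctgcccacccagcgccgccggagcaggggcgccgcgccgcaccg
JMJD1C internal start: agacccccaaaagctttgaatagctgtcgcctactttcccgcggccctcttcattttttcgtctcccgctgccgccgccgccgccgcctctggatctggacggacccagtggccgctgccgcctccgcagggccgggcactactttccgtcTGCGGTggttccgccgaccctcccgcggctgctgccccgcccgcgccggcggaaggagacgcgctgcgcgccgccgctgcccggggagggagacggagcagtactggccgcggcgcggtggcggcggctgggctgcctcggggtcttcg
MBNL1: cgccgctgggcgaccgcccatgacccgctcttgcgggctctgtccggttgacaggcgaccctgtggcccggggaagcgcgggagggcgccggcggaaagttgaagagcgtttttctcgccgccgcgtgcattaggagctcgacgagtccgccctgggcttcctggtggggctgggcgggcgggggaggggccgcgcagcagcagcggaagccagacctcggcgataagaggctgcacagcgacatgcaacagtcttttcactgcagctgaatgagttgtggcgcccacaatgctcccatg
CPEB2: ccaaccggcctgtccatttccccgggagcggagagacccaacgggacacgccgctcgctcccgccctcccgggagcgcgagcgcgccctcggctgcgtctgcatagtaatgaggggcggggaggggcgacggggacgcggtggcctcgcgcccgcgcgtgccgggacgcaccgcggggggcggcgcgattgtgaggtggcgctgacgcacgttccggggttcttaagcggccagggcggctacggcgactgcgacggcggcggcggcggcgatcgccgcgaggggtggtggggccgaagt

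RefSeq gave 22 such windows for the 8 genes, and 9 windows of 5 genes overlapped a RUNX2 peak. Among them 8 did so in KARPAS-45, 3 in PER-117 and 2 in both lines. Letters of the motif on either strand were present in 3 of the 9 windows and in 0 of the other 13, against 19.6% of all 34961 promoter windows of the same length. In the MEIS1 window TGTGGT began 169 bases before the start and lay outside the KARPAS-45 peak, 177 bp from its summit. At the internal start of JMJD1C, TGCGGT began 99 bases before the start, inside the KARPAS-45 peak and 33 bp from its summit, and outside the peaks of PER-117. At the 5′ start of JMJD1C, ACCACA and ACCGCA began 234 and 194 bases before the start, inside the KARPAS-45 peak but 404 and 364 bp from its summit. The windows of CPEB2 and MBNL1 held none of these letters, which says only that these exact letters were missing there.

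The 8 loci held 71 RUNX2 peaks in KARPAS-45 against 24 in PER-117, a ratio of 2.96. H3K27ac covered 496 kb of them in KARPAS-45 and 98.3 kb in PER-117, which is 19.5% and 3.87% of their length. MBNL1, JMJD1C and ARID1B held most of the peaks of both lines, MEIS1 and PROM1 were marked in KARPAS-45 only, and MEF2C held no RUNX2 peak in either line. At least 1 RUNX2 peak lay in the loci of 7 of 8 members in KARPAS-45 and of 5 in PER-117, where the background over all protein-coding genes was 85.4% and 73.1%. H3K27ac lay in the loci of 7 members in KARPAS-45 and of 6 in PER-117, against a background of 83% and 81%. These shares were near or below the background, so being marked at all did not set the list apart. More RUNX2 peaks were found in KARPAS-45 than in PER-117 at 7 members and fewer at none, and 66.4% of all genes also had more. More acetylated bases were found in KARPAS-45 at 5 members and in PER-117 at the other 3, PBX3, MEF2C and CPEB2, while 69% of all genes had more in KARPAS-45. With the KARPAS-45 RUNX2 list shortened to the number of PER-117 peaks, an alternative chosen after seeing the data, KARPAS-45 had 31 peaks in the loci and more peaks at 4 members, and PER-117 had 24 peaks and more at 2. At equal covered length of H3K27ac, widest regions first, KARPAS-45 had more acetylated bases at 3 members and PER-117 at 4. That setting kept no KARPAS-45 region narrower than 6101 bp, however strong, so its order of the lines depends on region width.

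Per length, the median member held 2.44 RUNX2 peaks per 100 kb in KARPAS-45 compared with 0.672 in PER-117. The medians over all protein-coding genes were 2.60 and 1.10, and over the 3351 genes of 100 kb or more they were 1.496 and 0.488. The median member had 6.62% of its locus acetylated in KARPAS-45 against 2.47% in PER-117, where all genes had medians of 7.17% and 3.33% and the long genes 2.69% and 1.43%. On these measures of the whole locus the medians of the members were below those of all genes and above those of long genes. Inside the gene span alone they were above those of all genes: the median member had 8.01% of its span acetylated in KARPAS-45 compared with 3.49% in PER-117, where all genes had 5.23% and 2.17%. These are descriptions with no test. MBNL1 had the highest density of RUNX2 in both lines, with 4.66 peaks per 100 kb in KARPAS-45 compared with 2.79 in PER-117. JMJD1C came next in both lines with 4.18 and 1.54.

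**Figure D1:**
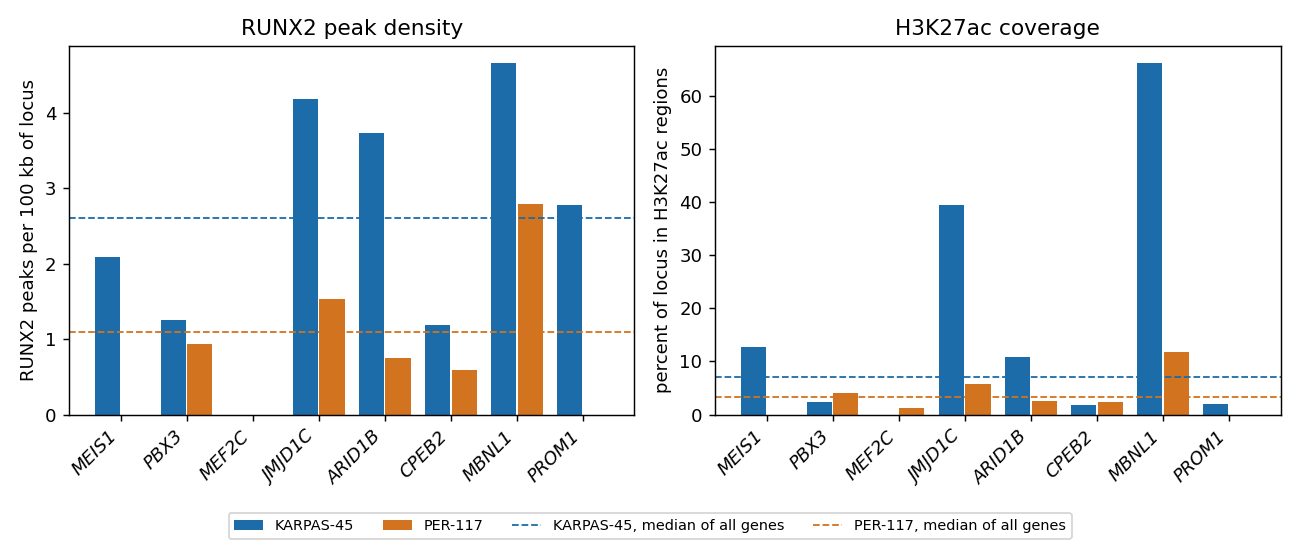
RUNX2 peaks per 100 kb of locus (left) and percent of the locus inside H3K27ac regions (right) for the 8 genes, with KARPAS-45 in blue, PER-117 in orange and dashed lines at the median of all protein-coding genes in each line. MBNL1 stands highest in both panels, with 66.1% of its locus acetylated in KARPAS-45 against 11.8% in PER-117, and MEIS1 and PROM1 have bars in KARPAS-45 only.

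RUNX2 was found within 1 kb of a gene end at 5 of 8 members in KARPAS-45, MEIS1, PBX3, JMJD1C, CPEB2 and MBNL1, against a background of 48.3%. In PER-117 it was found there at 4 members, the same without MEIS1, against 32.5%. The order of the lines turned in shorter lists. With peaks of −log10 q of 10 or more the count was 1 member in KARPAS-45 against 2 in PER-117. It was 0 against 1 when each line was held to its 5000 strongest peaks, and with the KARPAS-45 list shortened to the PER-117 number 2 against 4. ARID1B was added in both lines when every annotated start was counted, and PBX3, whose annotated start lies inside its span, was then lost in PER-117. This gave 6 members in KARPAS-45 compared with 4 in PER-117, with backgrounds of 50.5% and 34.4%. H3K27ac at a gene end was found at 6 members in KARPAS-45, all but MEF2C and PROM1, and at 5 in PER-117, where MEIS1 was also without it. The backgrounds were 61% and 55.5%. The annotated starts gave the same 6 and 5 members, against 61.6% and 57.1% of all genes. The order of the lines turned for H3K27ac too. Above a −log10 q threshold of 2, acetylation at a gene end was left at 4 members in KARPAS-45 against 5 in PER-117. ARID1B and CPEB2 were the members lost in KARPAS-45. Inside the span itself RUNX2 was found at 7 members in KARPAS-45 and at 5 in PER-117, against 58.9% and 40.2%, and H3K27ac at 7 and 5, against 66.8% and 61.8%. The members' spans measure 67.7 to 434.8 kb, longer spans hold more intervals, and the background was not matched for length. All RUNX2 peaks at gene ends lay at the 5′ end and none at a 3′ end. Most peaks were away from the annotated starts of the member itself. Such a start lay within 1 kb of 12 of 71 peaks in KARPAS-45 (16.9%, Wilson 95% interval 9.94 to 27.3). In PER-117 this held for 6 of 24 peaks (25.0%, 12.0 to 44.9). These and later intervals cover counting error only. Starts of neighbouring genes were not counted, nor was the 5′ end of the MBNL1 span, which is not among its annotated starts. The share of the whole lists near a start was not computed.

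Among the transcription factors, MEIS1 was marked in KARPAS-45 only. MEIS1 (chr2:66435125-66573869) encodes a homeodomain protein that works as a cofactor of HOX proteins and maintains self-renewal in KMT2A-rearranged leukemia. In KARPAS-45 its locus held 5 RUNX2 peaks, 4 of them between −5.89 and +3.53 kb of the 5′ end, where minus stands for sequence before the gene. Their fold enrichments were 5.07 at −5.89 kb, 19.4 at −1.54 kb, 6.62 at +0.008 kb and 13.2 at +3.53 kb, and the remaining peak had 12.01 at +126.8 kb inside the gene. The strongest (chr2:66433390-66433834) was among the top 7.58% of the KARPAS-45 list. An H3K27ac region of 10.9 kb with a fold enrichment of 2.20 ran over the start (chr2:66432848-66443783) and held 3 of the 5 summits. It was 1 of 19 acetylated regions at the locus, the strongest of them with 5.36 at −44.6 kb, and 30.6 kb or 12.8% of the locus was acetylated in all, of which 10.9 kb at equal covered length. PER-117 had 0 RUNX2 peaks and 0 H3K27ac regions at this locus. H3K27ac was found at the locus in KARPAS-45 but not in PER-117 at MEIS1 and PROM1, against 5.93% of all genes, and RUNX2 at the same 2 members, against 14.4%. Both marks in KARPAS-45 with neither in PER-117 was a pattern of MEIS1 and PROM1, 2 of 8 members, and of 3.79% of all genes and of 5.25% of genes of 100 kb or more. Above an H3K27ac −log10 q threshold of 2, KARPAS-45 had 0 kb of acetylation at PROM1 and 24.1 kb at MEIS1. MEIS1 alone then kept the pattern, and the share of all genes was not counted at that threshold.

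PBX3 had 1.25 RUNX2 peaks per 100 kb in KARPAS-45 and 0.937 in PER-117, below the median of all genes in each line. PBX3 (chr9:125747373-125967377) encodes a homeodomain protein that forms complexes with MEIS1 and HOXA9. Its locus held 4 RUNX2 peaks in KARPAS-45 against 3 in PER-117. A pair at −1.23 kb had fold enrichments of 4.04 in KARPAS-45 compared with 4.54 in PER-117 with summits 1 bp apart, and a pair at +76.9 kb had 5.35 and 3.03. A peak of 6.005 at −0.433 kb was called in KARPAS-45 only and a peak of 2.70 at +141.8 kb in PER-117 only. The last KARPAS-45 peak, at −40.6 kb, lay inside the neighbouring gene MAPKAP1, 465 bp from the 5′ end of that gene. H3K27ac covered 7.41 kb in KARPAS-45 and 13.2 kb in PER-117, which is 2.32% and 4.12% of the locus. The medians of all genes were 7.17% and 3.33%, so coverage was below the median in KARPAS-45 and above it in PER-117. The promoter region had a fold enrichment of 3.01 over 2004 bp in KARPAS-45 against 11.4 over 1824 bp in PER-117. At PBX3 more bases were thus acetylated in PER-117, while the whole list covered more in KARPAS-45.

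MEF2C had no RUNX2 peak in either line and no mark at any of its 7 annotated starts. MEF2C (chr5:88717117-88904105) encodes a MADS-box factor of muscle and blood that is highly expressed in immature T-ALL. KARPAS-45 had no interval at the locus. PER-117 had 3 H3K27ac regions beyond the 3′ end, with fold enrichments of 2.91, 8.50 and 4.95 and 3.58 kb in all. The strongest (chr5:88673510-88676350) lay between +227.8 and +230.6 kb of the 5′ end of a gene of 187.0 kb. H3K27ac at the locus in PER-117 but not in KARPAS-45 was seen at 1 of 8 members, MEF2C, against 3.95% of all genes. Of all genes 0.586% had, like MEF2C, no interval other than PER-117 acetylation in a flank. That class was drawn up from the values of MEF2C, so its size is a description only. It also depends on the flank of 50 kb. With a flank of 10 kb PER-117 had 0 kb of acetylation at MEF2C, and with 100 kb it had 2 RUNX2 peaks.

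**Figure D2:**
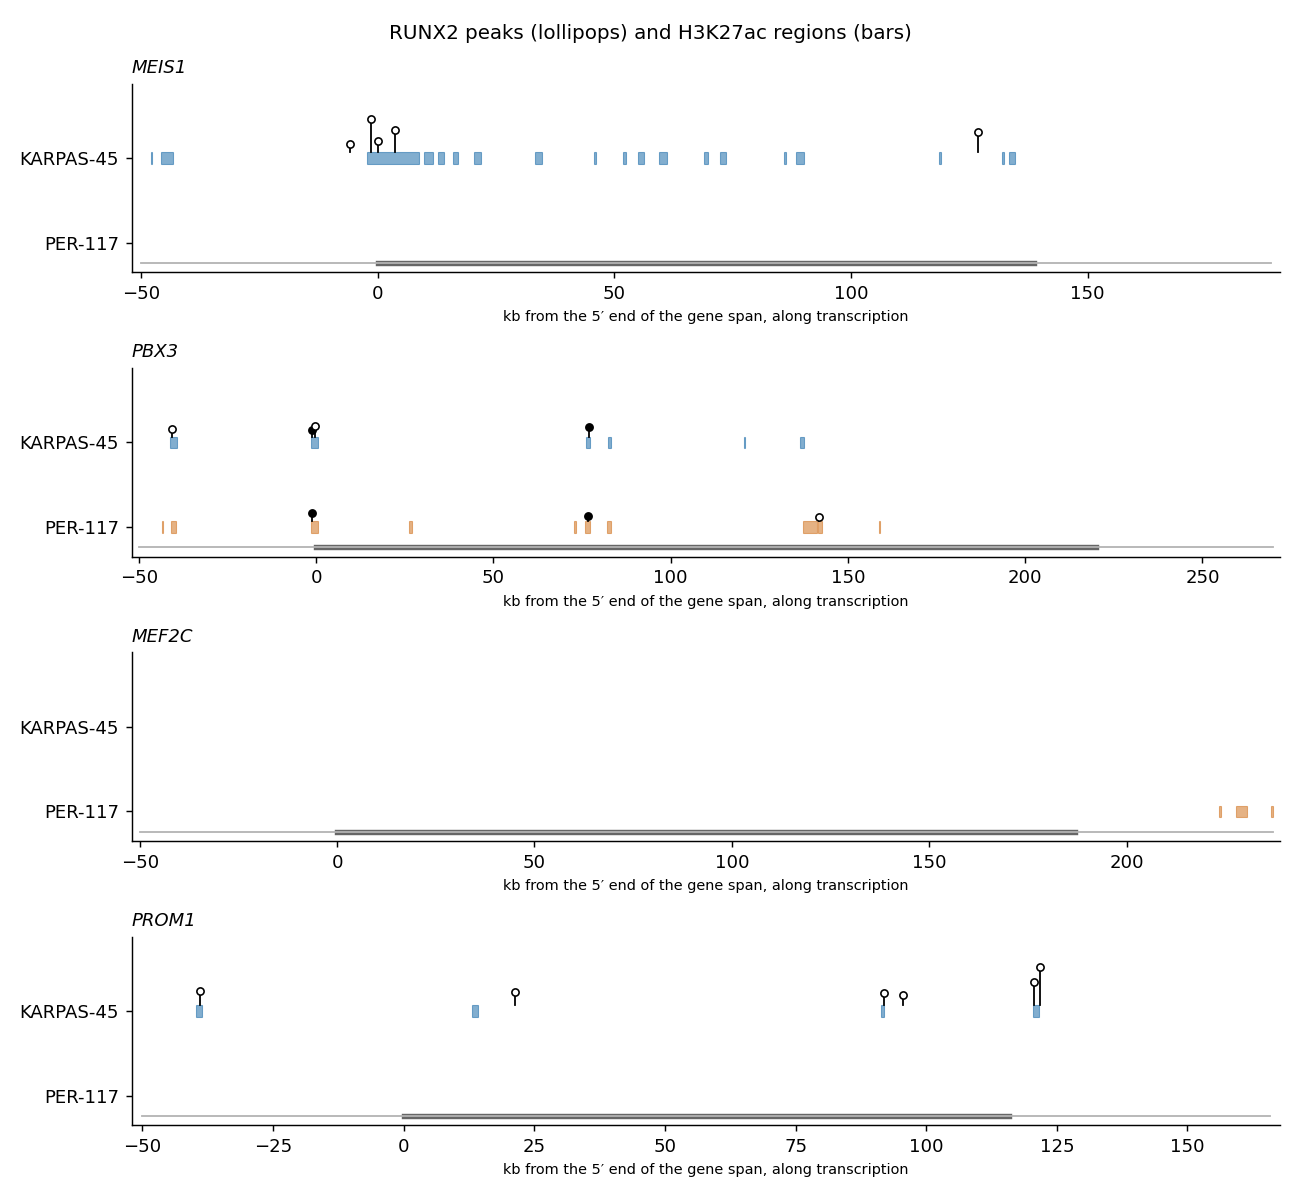
Maps of the MEIS1, PBX3, MEF2C and PROM1 loci, with KARPAS-45 above PER-117 and position in kb from the 5′ end along transcription. Bars are H3K27ac regions, pins are RUNX2 peaks whose height scales with fold enrichment, black heads overlap a peak of the other line, white heads do not, and the thick grey line is the gene. MEIS1 and PROM1 show intervals in KARPAS-45 only, PBX3 has pairs at −1.23 and +76.9 kb, and MEF2C has 3 bars in PER-117 beyond the gene.

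Among the chromatin proteins, JMJD1C and ARID1B carried RUNX2 and H3K27ac at many places along their length in KARPAS-45 and at fewer in PER-117. JMJD1C (chr10:63167225-63521890) encodes a protein of the histone demethylase family that leukemia cells with KMT2A fusions need to grow. Its locus held 19 RUNX2 peaks in KARPAS-45 against 7 in PER-117, and all 7 of PER-117 overlapped a KARPAS-45 peak. At the 5′ end KARPAS-45 had peaks of 8.69 at +0.175 kb and 7.73 at +0.878 kb, and PER-117 had 5.87, which overlapped the second. At the other edge of the locus, +388.6 kb, a pair at the 5′ end of NRBF2 had 7.34 in KARPAS-45 against 3.38 in PER-117. The 5′ end of JMJD1C is shared with REEP3, whose span overlaps that of JMJD1C by 490 bp, so a peak there cannot be given to either gene. At the internal start, 55.9 kb into the gene, KARPAS-45 had 1 peak of 9.54 and PER-117 had 2 peaks of 7.22 and 5.61. A further pair inside the gene, at +133.3 kb, had 15.4 in KARPAS-45 compared with 7.50 in PER-117 with summits 6 bp apart. The strongest peak of the 8 loci, 27.02 in KARPAS-45 (chr10:63554616-63555089, top 3.38% of the list), lay at −33.0 kb inside REEP3 and had no counterpart in PER-117.

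H3K27ac at JMJD1C covered 179.4 kb in KARPAS-45 and 26.0 kb in PER-117, which is 39.5% and 5.73% of the locus. The KARPAS-45 value was 87.0 kb above a −log10 q threshold of 2 and 74.4 kb at equal covered length. Coverage as high as that of KARPAS-45 was found at 7.89% of all genes in the same list. Of the 70 KARPAS-45 regions 28 had a −log10 q of 2 or more, and of the 15 PER-117 regions 12 did. The highest fold enrichments in KARPAS-45 were 13.8 (chr10:63562876-63565006) and 13.2 (chr10:63553611-63555909), both before the gene and inside REEP3, and each held a RUNX2 summit. The second held the peak of 27.02. The first held a RUNX2 peak of 8.75, which overlapped a PER-117 peak of 7.08 that was not in an H3K27ac region of PER-117. In PER-117 the strongest region, 11.3, stood at the 5′ end, where the KARPAS-45 region was 7.65 kb wide with 2.25.

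ARID1B (chr6:156776026-157210779) encodes a DNA-binding subunit of the BAF chromatin remodelling complex. Its locus held 20 RUNX2 peaks in KARPAS-45 against 4 in PER-117. Near the start a peak of 10.04 at +2.05 kb in KARPAS-45 (chr6:156777220-156778552) overlapped a peak of 9.34 in PER-117, the strongest of that locus in PER-117. A pair at +291.2 kb had the same summit position, with 4.75 in KARPAS-45 compared with 3.75 in PER-117. The other KARPAS-45 peaks of similar or higher fold enrichment were 14.4 at +407.1 kb, 11.5 at +111.7 kb, 10.03 at +278.7 kb and 9.97 at +421.7 kb, and these had no counterpart in PER-117. Peaks of 4.72 and 3.42 at +376.1 and +411.0 kb were called in PER-117 only. H3K27ac covered 58.4 kb in KARPAS-45 and 13.6 kb in PER-117. The KARPAS-45 value was 19.7 kb above a −log10 q threshold of 2 and 13.2 kb at equal covered length. The order of the lines turned at equal covered length, which kept no KARPAS-45 region narrower than 6101 bp. The strongest KARPAS-45 regions of this locus were narrower and were dropped by that setting. The region at the start had a fold enrichment of 1.40 over 6.91 kb in KARPAS-45 against 16.9 over 3.71 kb in PER-117. The strongest KARPAS-45 regions lay in the last part of the gene instead, with 12.9 at +418.6 kb, 10.96 at +357.1 kb and 10.1 at +421.9 kb, and none of these overlapped a PER-117 region.

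Among the RNA-binding proteins, CPEB2 was marked at its start only, and MBNL1 over most of its length in KARPAS-45. CPEB2 (chr4:15002481-15070151) encodes a regulator of mRNA polyadenylation and translation. A RUNX2 peak of 6.36 at −0.084 kb in KARPAS-45 overlapped a peak of 4.95 at +0.189 kb in PER-117, and a further KARPAS-45 peak of 9.66 stood at +1.46 kb. A single H3K27ac region covered the start in each line, with a fold enrichment of 1.51 over 3.15 kb in KARPAS-45 against 10.4 over 4.05 kb in PER-117. The −log10 q of these regions was 1.80 in KARPAS-45 against 37.1 in PER-117.

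MBNL1 (chr3:152243632-152465780) encodes the muscleblind splicing regulator, which is itself known as a dependency of KMT2A-rearranged leukemia. Its locus held 15 RUNX2 peaks in KARPAS-45 compared with 9 in PER-117. The strongest KARPAS-45 peak had 17.5 at −49.9 kb, and the PER-117 peak that overlapped it had 6.13. The strongest PER-117 peak of the 8 loci had 11.5 at the 5′ end, at −0.128 kb and in the top 13.9% of its list, and the KARPAS-45 peak that overlapped it had 3.18. PER-117 had another peak of 5.596 at +0.363 kb. Near the next start, 25 kb into the gene, KARPAS-45 had peaks of 8.54 and 3.44 and PER-117 had 6.51. A pair at +190.7 kb, with 5.35 in KARPAS-45 against 9.69 in PER-117, was acetylated in neither line, and a KARPAS-45 peak of 12.9 at +182.0 kb had no counterpart.

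H3K27ac covered 212.8 kb of the MBNL1 locus in KARPAS-45 and 37.9 kb in PER-117, which is 66.1% and 11.8%. At equal covered length the KARPAS-45 value was 138.3 kb. Coverage as high was found at 0.951% of all genes in the KARPAS-45 list and at 18.4% in the PER-117 list. In KARPAS-45 a region of 95.7 kb and 3.89 in fold enrichment (chr3:152181068-152276765) ran from before the locus over the 5′ end. It held 8 RUNX2 peaks, not all of them inside the locus. In PER-117 the regions were separate, the widest 10.2 kb, and the strongest had 10.04 at the start near +25.3 kb and 9.90 at the 5′ end. No region of the whole PER-117 list was wider than 38650 bp, so a region of 95.7 kb was found at no gene in that list. The 5′ end and the starts near +25 kb were thus acetylated in both lines, and the sequence between them wholly in KARPAS-45 and in part in PER-117. A start further into the gene carried a RUNX2 peak of 4.21, at +55.5 kb, and H3K27ac in KARPAS-45 only.

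**Figure D3:**
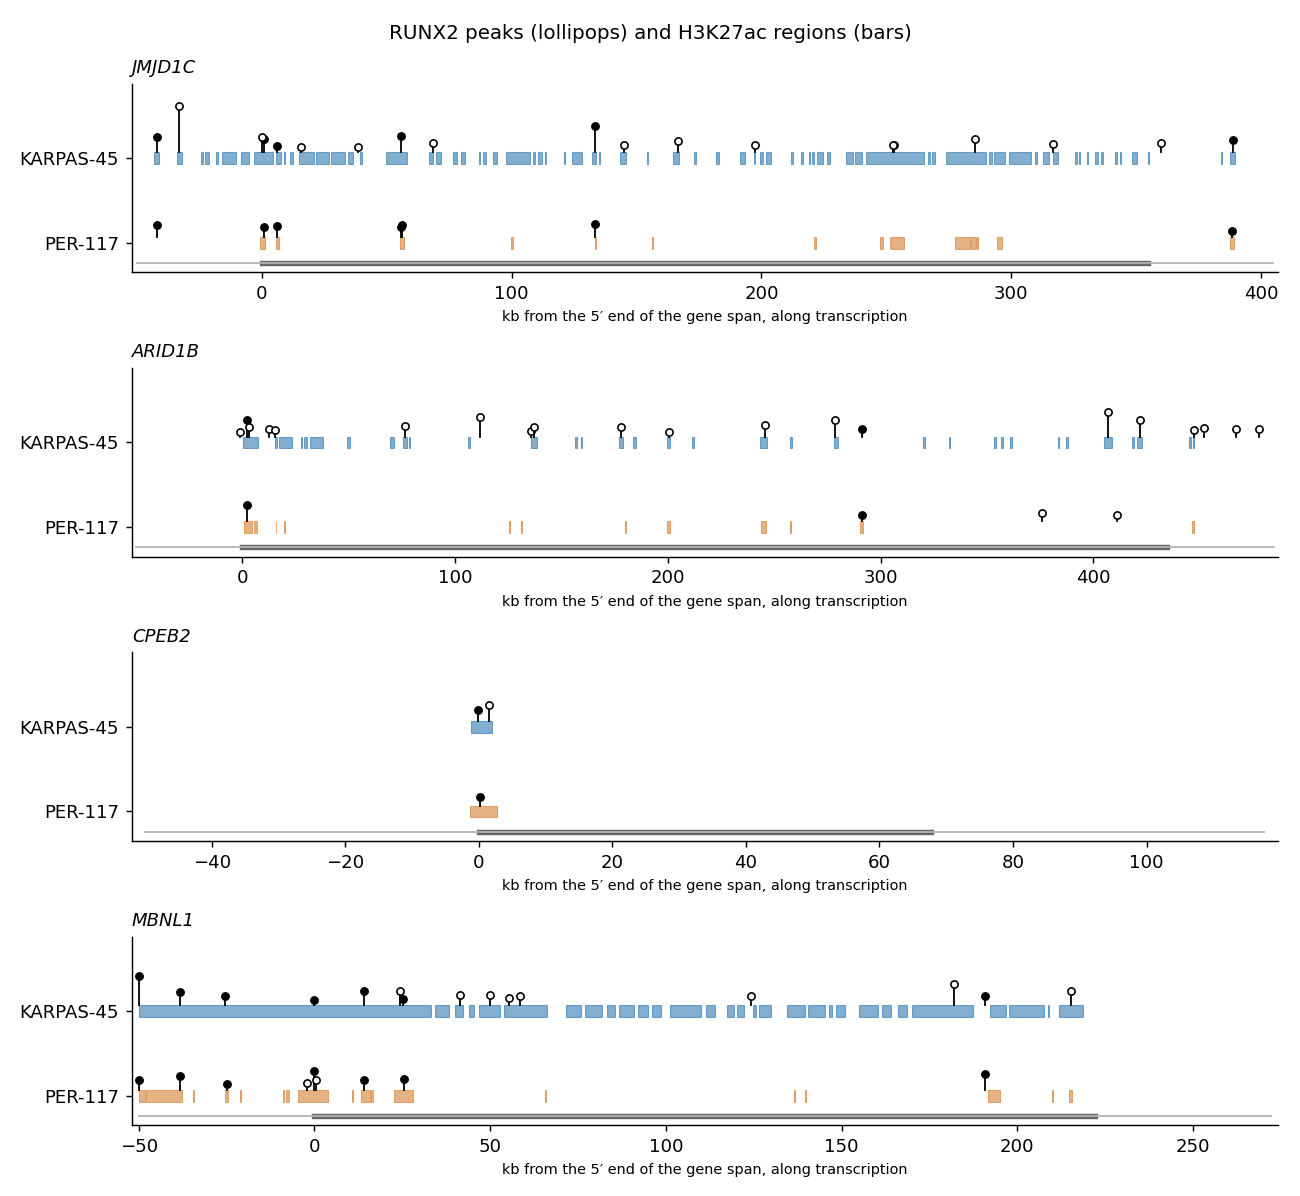
Maps of the JMJD1C, ARID1B, CPEB2 and MBNL1 loci, with KARPAS-45 above PER-117 and position in kb from the 5′ end along transcription. Bars, pins and heads are as in the maps of the transcription factors. KARPAS-45 shows 70 H3K27ac regions at JMJD1C and PER-117 15, MBNL1 in KARPAS-45 opens with the region of 95.7 kb, and CPEB2 has 1 bar in each line at its start.

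The surface protein gene PROM1 had RUNX2 peaks in KARPAS-45 only, none of them at its promoter. PROM1 (chr4:15968228-16084023) encodes CD133, used as a marker of stem cells and of many KMT2A-rearranged leukemias. The locus, mapped beside those of the transcription factors, held 6 RUNX2 peaks in KARPAS-45 compared with 0 in PER-117, and none lay within 1 kb of any of its 4 annotated starts. The strongest, with 22.8 (chr4:15962174-15962489, top 5.33% of the list), lay beyond the 3′ end and inside the neighbouring gene FGFBP2, 845 bp from the 5′ end of that gene. The next, with 14.01, lay 222 bp before the 5′ end of FGFBP2. The other 4 had fold enrichments of 5.92, 7.21, 8.02 and 8.41, and the last stood at −39.0 kb. H3K27ac in KARPAS-45 was weak, with 4 regions of 4.14 kb in all, fold enrichments of 1.34 to 1.52 and none with a −log10 q of 2 or more. PER-117 had no H3K27ac region there. The annotated starts of PROM1 were thus unmarked in both lines.

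RUNX2 peaks of PER-117 at these genes were mostly found in KARPAS-45 too, and the reverse was less frequent. Of the 71 KARPAS-45 peaks 18 overlapped a PER-117 peak (25.4%, 16.7 to 36.6), and of the 24 PER-117 peaks 19 overlapped a KARPAS-45 peak (79.2%, 59.5 to 90.8). Over the whole lists the shares were 31.2% and 63.6%, inside both intervals, and the KARPAS-45 list is the longer one. The 19 overlapping pairs lay in 5 genes, PBX3, JMJD1C, ARID1B, CPEB2 and MBNL1. Their summits were 0 to 476 bp apart with a median of 51 bp, and 11 pairs were within 100 bp. Strong in one line was not always strong in the other. The peak at the MBNL1 5′ end ranked in the top 96.8% of the KARPAS-45 list, close to its bottom, and in the top 13.9% of the PER-117 list. The MBNL1 peak at −49.9 kb ranked in the top 9.45% in KARPAS-45 and in the top 44.2% in PER-117. The start of ARID1B was alike, with the top 25.6% in KARPAS-45 and the top 21.0% in PER-117.

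**Figure D4:**
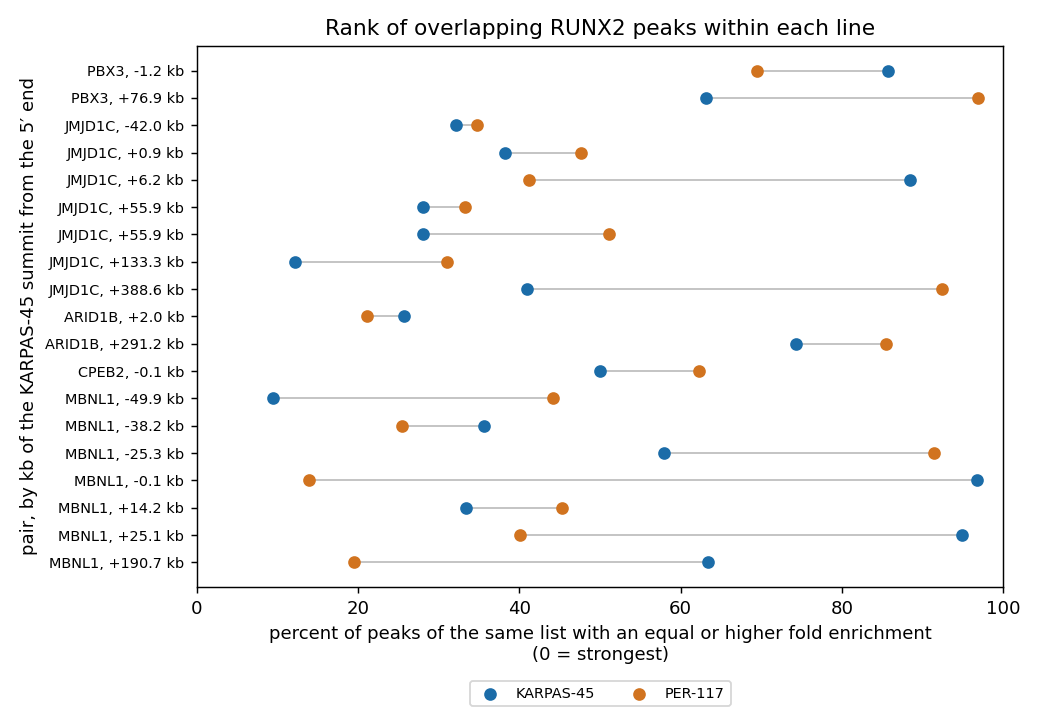
Rank of each of the 19 overlapping pairs of RUNX2 peaks within its own list, as the percent of peaks with an equal or higher fold enrichment, with KARPAS-45 in blue and PER-117 in orange. Points near 0 are the strongest peaks, and the MBNL1 pair at the 5′ end has the KARPAS-45 point at 96.8% and the PER-117 point at 13.9%.

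Over the lists as deposited, most RUNX2 summits at the members lay in H3K27ac of the same line. In KARPAS-45 51 of 71 summits did (71.8%, 60.5 to 81.0), against 65.2% of the whole list, and in PER-117 20 of 24 did (83.3%, 64.1 to 93.3), against 75.6%. The KARPAS-45 share was 46.5% above an H3K27ac −log10 q threshold of 2, and 31.0% at equal covered length of H3K27ac. The latter setting kept no KARPAS-45 region narrower than 6101 bp. Shared peaks were acetylated in both lines for the most part: 16 of the 18 in KARPAS-45 and 17 of the 19 in PER-117 lay in H3K27ac of their own line. Of the 53 peaks found in KARPAS-45 only, 35 lay in KARPAS-45 H3K27ac (66.0%, 52.6 to 77.3) and 13 in PER-117 H3K27ac (24.5%, 14.9 to 37.6). Of the 5 peaks found in PER-117 only, 3 lay in its own H3K27ac and 2 in that of KARPAS-45. The whole lists were not split into shared and unshared peaks, so whether this contrast is particular to these loci is unknown. Seen from the histone mark, 36 of 163 KARPAS-45 regions held a RUNX2 peak (22.1%, 16.4 to 29.1), against 31.3% of its whole list. In PER-117 17 of 59 regions did (28.8%, 18.8 to 41.4), against 25.6% of its whole list. Of the KARPAS-45 regions 27 overlapped a PER-117 region (16.6%, 11.6 to 23.03), against 35.3% of the whole list. Of the PER-117 regions 44 overlapped a KARPAS-45 region (74.6%, 62.2 to 83.9), against 58.2%. Regions of 1 locus share a gene and a library, so these intervals are too narrow as a measure of the difference between the member loci and the rest.

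Some peaks lie in or near other genes, among them those at the 5′ end that JMJD1C shares with REEP3. In KARPAS-45 8 of 71 RUNX2 peaks, and in PER-117 3 of 24, lay inside another protein-coding gene or within 1 kb of its end, and these were MAPKAP1, REEP3, NRBF2 and FGFBP2. Only 4 peaks of KARPAS-45 were among the 5000 strongest of their list, at MEIS1, JMJD1C, MBNL1 and PROM1, and of these the peaks of JMJD1C and PROM1 lay inside REEP3 and FGFBP2. In PER-117 3 were, 2 at MBNL1 and 1 at ARID1B. The 5000 strongest are a smaller part of the 42911 KARPAS-45 peaks than of the 21027 PER-117 peaks. A −log10 q of 10 or more was reached by 32 of the 71 KARPAS-45 peaks (45.1%, 34.0 to 56.6), against 51.5% of the whole list. Of the 24 PER-117 peaks 9 reached it (37.5%, 21.2 to 57.3), against 49.3% of the whole list. Both shares at the members were the lower ones, but the whole-list shares lay inside the intervals.

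Beside the members, a list of 14 other known targets of KMT2A fusions outside the HOX clusters was counted in the same way, CDK6, BCL2, MYB, RUNX1, RUNX2, SUPT3H, FLT3, ZEB2, LMO2, TAPT1, SENP6, GNAQ, SKIDA1 and IKZF2. RUNX2 lay at a gene end of 13 of them in KARPAS-45 and of 7 in PER-117, and H3K27ac of 13 in each line, LMO2 being the exception in every case but the RUNX2 of PER-117. Over all genes the shares were 48.3% and 32.5% for RUNX2 and 61% and 55.5% for H3K27ac. More RUNX2 peaks were found in KARPAS-45 at 12 of the 14 and fewer at none, and more acetylated bases in KARPAS-45 at 12. Of all genes 66.4% had more RUNX2 peaks and 69% more acetylated bases in KARPAS-45. MYB, a factor of immature blood cells, had 9 RUNX2 peaks in KARPAS-45 against 0 in PER-117 at its locus, and SENP6 had 3 against 0. Both genes had H3K27ac at a gene end in both lines. At MYB there were 14 H3K27ac regions of 91.4 kb in KARPAS-45 and 16 of 15.1 kb in PER-117. The median of these genes was 5.04 RUNX2 peaks per 100 kb in KARPAS-45 compared with 1.48 in PER-117, higher than that of the 8 members, with no test. The medians of all genes were 2.60 and 1.10. SUPT3H and RUNX2 are neighbours and share part of their loci. The TAPT1 locus overlaps that of the member PROM1, and the KARPAS-45 RUNX2 peak at −39.0 kb of PROM1 lies in both.

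By density of intervals over the 4 lists, the gene most like each member was RAB20 for MEIS1, OR5B21 for PBX3, LOC102724737 for MEF2C, ORC2 for JMJD1C, DDX24 for ARID1B, HTR2A for CPEB2, LOC124902805 for MBNL1 and OR4K14 for PROM1. Likeness was the mean absolute difference in log2(intervals per 100 kb + 1) over the 4 lists, and the smallest and largest of these differences were 0.0041 for CPEB2 and 0.081 for PBX3. RAB20 had 3 RUNX2 peaks and 11 H3K27ac regions in KARPAS-45 and none of either in PER-117, as MEIS1 had 5 and 19 against none. These genes were named for this measure alone.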

How the data were processed

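ChIP-seq peak lists of RUNX2 and H3K27ac in KARPAS-45 and PER-117 were used as the authors deposited them, 1 list per library. STAR 2.4.2a, MACS2 and the hg38 build appear in the submitters' processing notes, without settings or the input behind each list. The authors deposited 10 columns per line: coordinates, a display score, a linear ratio called fold enrichment, −log10 q beside −log10 p, and for RUNX2 a summit. The deposited score matched 10 times −log10 q without its decimals. Read counts were not used here, so depth is unknown.

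RUNX2 lines with the same interval were joined and kept the summit of highest fold enrichment, and 127 lines in KARPAS-45 and 40 in PER-117 on other sequences were left out. Genes and promoters came from RefSeq GRCh38.p14, which places 19970 protein-coding genes on chromosomes 1 to 22 and X. An interval belongs to a locus, gene end or promoter when it overlaps by 1 bp or more, and a summit is acetylated when inside an H3K27ac region. Shares have Wilson 95% intervals, and no test between lines was run. All 8 members are named, with the peaks at gene ends, the strongest of each line and the shared ones. The members and lists were chosen with earlier results of these data known. One marker list is not reported here. The alternatives were other thresholds, list lengths, flanks, windows and overlaps. The overlap code was tested on simulated data. Scripts ran in Python 3.11.15 with pandas 2.3.3, numpy 2.4.6, matplotlib 3.10.9 and scipy 1.17.1.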

Additional observations from a re-analysis of the deposited data

How the results depend on the processing

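At a RUNX2 threshold of 10 for −log10 q, KARPAS-45 had 32 peaks in the member loci and PER-117 had 9, with gene-end peaks at 1 member in KARPAS-45 and at 2 members in PER-117. Of the KARPAS-45 summits 84.4% were acetylated, and 100% of the 9 PER-117 peaks overlapped a KARPAS-45 peak. With the 5000 strongest peaks of each line, KARPAS-45 had 4 peaks and PER-117 had 3, and gene-end peaks at 0 members in KARPAS-45 and 1 in PER-117. More peaks were then found in KARPAS-45 at 3 members and in PER-117 at 2. With the KARPAS-45 list shortened to the number of PER-117 peaks, an alternative chosen after seeing the data, 31 peaks and gene-end peaks at 2 members were left in KARPAS-45, and KARPAS-45 had more peaks at 4 members and PER-117 at 2. With H3K27ac regions of −log10 q of 2 or more, 82 regions were left in KARPAS-45 and 46.5% of its RUNX2 summits were acetylated, and CPEB2 and PROM1 had 0 acetylated bases in it. At equal covered length, widest regions first, 15 regions were left in KARPAS-45, 31.0% of its summits were acetylated, and KARPAS-45 had more acetylated bases at 3 members and PER-117 at 4. That setting kept no KARPAS-45 region narrower than 6101 bp, so PBX3, CPEB2 and PROM1 had 0 acetylated bases in KARPAS-45. The shorter lists hold fewer intervals by construction, and the cause of the shifts in shares was not tested. A flank of 100 kb gave MEF2C 2 RUNX2 peaks in PER-117 and MEIS1 0.343 kb of acetylation in PER-117. The other 35 values of the main counts stayed within 1.5 times, or within the 95% interval of the share as reported. Among these, acetylation at a gene end above a −log10 q of 2 was at 4 members in KARPAS-45 against 5 in PER-117. There the order of the lines turned. No paired analysis was possible because each line and antibody has 1 library. Weak or missing peaks may lie below an unknown depth, and no difference between the lines was tested.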
